A study of Mus musculus with 36 samples.

Results

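Young mouse liver sampled at the time label 48 of a regeneration course was compared with young liver sampled before it. The comparison was chosen by the library titles: 3 libraries labelled Y1 to Y3 at 48 against 3 labelled Y1 to Y3 before, 6 of the 36 libraries of the series. All the mice were of the C57BL/6JN strain. The series holds young (4 months) and old (18 months) livers at 6 time labels (before, 48, 72, 96, 120 and 240), with 3 libraries described as biological replicates in each of the 12 groups. The labels give no unit for the time, no sex, no hour of sampling and no account of how regeneration was started or whether the liver sampled before and the liver sampled at 48 came from the same animals. RNA was ribosome-depleted total RNA, so that transcripts without a poly(A) tail, such as replication-dependent histone messages, were also sequenced. The 2 further comparisons used here, the change at 48 in young against that in old liver and young liver at 72 against 48, share libraries with the main one, and their values are therefore given side by side only.

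The adult liver is made mostly of hepatocytes, which rarely divide but re-enter the cell cycle when tissue is lost. Quiescent hepatocytes first switch on immediate early genes, then pass through G1 under the control of D and E type cyclins, Rb family proteins and E2F factors, replicate their DNA, and enter mitosis with the cyclin B and Cdk1 kinase. While they divide, hepatocytes also carry the metabolic work of the organ: synthesis of plasma proteins, lipid, glucose and bile acids, and detoxification.

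The 6 libraries held between 3929035 counts (48, replicate 2) and 6034446 counts (48, replicate 1), and 13436 genes passed the filter on low counts. Levels are given below as CPM, a gene's counts relative to the scaled total of its library after scaling of the library totals, always in the order replicate 1, 2 and 3. Transcripts of Y-linked genes were present in 1 library of each of the 12 groups, here replicate 1 before and replicate 3 at 48, and at 0 counts in the other 4. Relative to the library total without scaling, their sum was 277.2 CPM in replicate 1 before and 184.6 CPM in replicate 3 at 48. Replicates 1 and 3 at 48 are therefore not the animals with the same numbers before. Both libraries lay apart from the other members of their groups on the second principal component, which held 15.01% of the variance. The first component, with 68.8%, separated the time labels: the libraries before lay between -48.6 and -47.0, and those at 48 at 51.2, 33.5 and 58.4, replicate 2 being the closest to the livers before.

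At 48, 1634 genes were higher than before (12.2% of the genes tested) and 1315 were lower (9.79%), by edgeR's quasi-likelihood test at an adjusted p under 0.05. The median log2 change of all genes tested was -0.01, with quartiles at -0.38 and 0.37. Rising genes moved further than falling ones: 426 of the 1634 were up by at least 4-fold and 168 by at least 16-fold, against 160 and 21 of the 1315. The called-higher genes took 5.5 to 5.8% of all counts in the libraries before and 13.1 to 16.1% at 48, while the called-lower genes went from 21.1 to 22.8% down to 10.4 to 12.4%. These shares describe the genes the test chose. The 3 and 3 libraries did not overlap for 1583 of the higher and 1283 of the lower genes, beside 41.4% of all genes tested. With both libraries that hold Y-linked transcripts left out, 1600 genes were called (1027 higher, 573 lower), and 1503 of them were among the 2949. Leaving out replicate 3 at 48 alone gave 1811 calls with 678 lower, and leaving out replicate 1 at 48 gave 805 lower. Scaling by total counts gave 2055 higher and 883 lower genes and moved the median of all genes to 0.09. Where 1 direction is given for a gene list below, 0 of its members were called in the other direction by edgeR or DESeq2, and at most 2 passed an unadjusted p under 0.05. Counts of 1 to 3 members of a list fell in many lists when single libraries were left out, and stayed the same in others. In such bulk samples, a change in the number of cells of a type and a change in RNA per cell cannot be told apart.

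**Figure D1:**
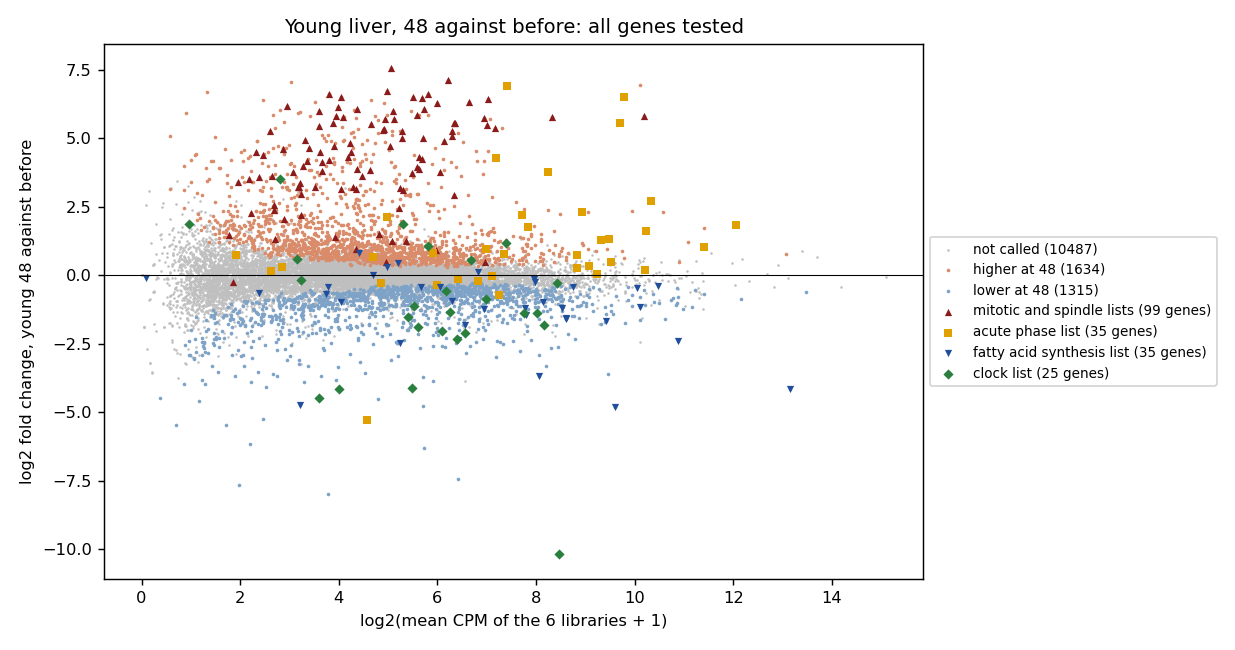
Log2 fold change of each gene tested in young liver at 48 against before (vertical axis) against its mean level in the 6 libraries (horizontal axis, log2 of CPM + 1); colours mark the 1634 higher, 1315 lower and other genes, and symbols mark genes of chosen lists. The mitotic and spindle genes lie almost entirely above 0, and most fatty acid synthesis and clock genes below.

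Of 23 G1 cyclin, kinase, E2F and Rb family genes tested, which carry cells from quiescence into G1 and S phase, 12 were higher and 11 were not called (median log2 0.61). E2f1, an activator of S phase genes, gave 9.15, 6.22 and 3.63 CPM before and 43.6, 37 and 33 CPM at 48. Every library at 48 was thus above every library before, and the log2 change was 2.56 ± 0.51 (SE; edgeR adjusted p = 0.000504). Mybl1, a Myb family factor, rose from 1.04, 0.497 and 1.45 CPM to 68.5, 39.6 and 50 CPM, a log2 change of 5.68 ± 0.68. Rbl1 (p107), a pocket protein of the Rb family, rose by 3.36 ± 0.38 and Cdc25a, the phosphatase that activates Cdk2, by 1.99 ± 0.25 on the log2 scale. Ccne1, the E cyclin that partners Cdk2, gave 2.7, 2.74 and 0.969 CPM before and 11.9, 9.05 and 12.8 CPM at 48, whereas Ccne2 did not pass the test (log2 change 0.18 ± 0.41, adjusted p = 0.793). Ccnd1, the D cyclin of G1, gave 113, 457 and 430 CPM before and 547, 502 and 327 CPM at 48. Its groups overlapped and the log2 change of 0.46 ± 0.65 did not pass the test (adjusted p = 0.665). With both libraries that hold Y-linked transcripts left out, 8 of the 23 genes were higher.

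Several brakes on the cycle rose at the same time. Of 28 Cdk inhibitor and p53 target genes, 13 were higher and 6 lower (median log2 0.50). Cdkn1a (p21), an inhibitor of Cdk2, gave 2.29, 4.23 and 3.87 CPM before and 66.7, 39.3 and 78.4 CPM at 48, a rise of 4.16 ± 0.77 on the log2 scale (adjusted p = 0.00026). Cdkn2c (p18), an Ink4 inhibitor of Cdk4 and Cdk6, gave 11, 14.7 and 13.8 CPM before and 189, 101 and 201 CPM at 48 (log2 change 3.64 ± 0.42). In both genes replicate 2 was the lowest of the libraries at 48 and still lay far above the livers before. Cdkn1b (p27) rose by 0.81 ± 0.17 and Cdkn2d (p19) by 2.36 ± 0.40. Phlda3, a p53 target that restrains Akt, rose by 3.35 ± 0.50. The list also held falling genes, among them the p53 targets Trp53inp1, Gdf15 and Sesn1, which fell by 1.48, 2.37 and 0.97 on the log2 scale.

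DNA replication genes were higher at 48 as well. Of 52 origin licensing and replication fork genes tested, 45 were higher and 1 was lower, with a median log2 change of 2.24. The summed level of the genes tested was 526, 456 and 505 CPM before and 2128, 1590 and 1710 CPM at 48. Mcm2 to Mcm7 form the helicase that unwinds DNA. Mcm5 gave 1.87, 4.23 and 6.30 CPM before and 78.6, 57.4 and 57.4 CPM at 48 (log2 change 3.98 ± 0.69, adjusted p = 0.000136), and Mcm7 gave 14.8, 14.7 and 16 CPM before and 109, 85.6 and 86.5 CPM at 48 (2.63 ± 0.32). Cdc6, which loads the helicase at origins, gave 0.832, 0.746 and 1.69 CPM before and 13.7, 9.05 and 12.6 CPM at 48. Pcna, the sliding clamp of the polymerases, rose 4.24-fold, and Fen1, the flap endonuclease of the lagging strand, rose by 3.24 ± 0.36 on the log2 scale. Top2a, which untangles replicated chromosomes, rose from 4.37, 7.96 and 9.93 CPM to 416, 217 and 295 CPM. Orc1, of the origin recognition complex, stayed between 0.624 and 2.85 CPM in the 6 libraries and did not pass the test (log2 change 1.20 ± 0.48, adjusted p = 0.0706). The one lower gene, Mcm10, gave 115 CPM in replicate 1 before and 31.1 and 32.4 CPM in the other livers before, against 15.9, 14.2 and 22.9 CPM at 48; it was called in 11 of 17 alternative analyses.

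Nucleotide synthesis and chromatin assembly genes rose in part. Of 29 nucleotide synthesis genes, 12 were higher (median log2 0.44). Both large and small subunits of ribonucleotide reductase, which makes deoxynucleotides, were among them: Rrm1 went from 7.07, 10.7 and 14.5 CPM to 101, 70.1 and 80.1 CPM, and Rrm2 from 10.2, 8.21 and 8.23 CPM to 162, 95.2 and 129 CPM. Tyms, which makes thymidylate, rose by 2.95 ± 0.36 on the log2 scale, while Tk1, the thymidine salvage kinase, did not pass the test (0.71 ± 0.38, adjusted p = 0.186). Among 30 genes of chromatin assembly, DNA methylation and Polycomb function, 18 were higher and 4 lower (median log2 1.21). Uhrf1, which brings the maintenance methylase to replicated DNA, rose by 4.65 ± 0.83. The methylase gene Dnmt1 rose by 1.80 ± 0.25, the Polycomb methylase gene Ezh2 by 1.84 ± 0.33 and the H3K9 methylase gene Suv39h1 by 2.61 ± 0.30. The 4 lower genes were Tet2 and Tet3, whose products oxidise 5-methylcytosine, Kdm6b, an H3K27 demethylase gene, and Jarid2, a Polycomb partner; 2 of the 4 were called without replicate 1 at 48.

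Clustered histone genes, whose messages supply new nucleosomes during S phase, rose nearly without exception: 53 of 55 tested were higher (median log2 3.47). Their summed level was 1576, 1640 and 1590 CPM before and 6349, 5167 and 5404 CPM at 48. Hist1h2bl went from 0.416, 0.497 and 0.726 CPM to 39.2, 32.1 and 39.9 CPM, a log2 change of 6.03 ± 0.82 (adjusted p = 7.45e-06). The genes of a histone class are near-identical in sequence, so that counts of single members are uncertain. H2afx, the histone variant gene of DNA damage signalling, rose by 4.18 ± 0.48. Of 40 DNA repair and checkpoint genes, 28 were higher and 1 lower (median log2 1.22). Brca1, of homologous recombination, gave 7.70, 12.7 and 8.72 CPM before and 98.9, 86.2 and 115 CPM at 48 (3.37 ± 0.32). Chek1, the replication checkpoint kinase gene, rose by 3.24 ± 0.57.

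Promoters of replication genes are shown because these genes moved together and S phase genes are textbook E2F targets. The 250 bases before the start of each gene were taken from RefSeq promoters of build GRCm38.p6, using the first start listed, for 10169 of the 13436 genes tested. They were searched on both strands for 4 motifs, none of which contains another. The E2F site was searched as TTTCCCGC or as TTTGGCGC. The CHR element of cell cycle promoters was searched as TTTGAA, and its second form was TTCGAA. The CCAAT box was searched by the letters of its name, and the E-box of clock promoters was searched as CACGTG. An E2F site was present in 16.3% of the 43 licensing and fork gene promoters found, in 2.51% of the promoters of genes tested and in 1.35% of all 27025 promoters. This share was not particular to the list: the site was in 22.2% of the 18 G1 list promoters and 12.9% of the 31 DNA repair promoters. It was also in 10.3% of the 29 interferon response promoters. Cdc6 (chr11:98907901-98908150, plus strand) holds 1 such site 138 bases before its start, and Mcm5 (chr8:75109259-75109508, plus strand) holds 1 at 149 bases and CCAAT boxes at 77 and 22 bases. Matches are in capitals and the rest in lower case, written 5′ to 3′ on the strand of the gene.
Cdc6: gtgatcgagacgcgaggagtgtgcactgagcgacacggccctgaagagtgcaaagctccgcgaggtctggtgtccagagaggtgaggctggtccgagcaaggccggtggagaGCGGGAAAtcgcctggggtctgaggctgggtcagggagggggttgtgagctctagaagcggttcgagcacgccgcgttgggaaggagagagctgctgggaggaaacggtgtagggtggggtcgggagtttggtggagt
Mcm5: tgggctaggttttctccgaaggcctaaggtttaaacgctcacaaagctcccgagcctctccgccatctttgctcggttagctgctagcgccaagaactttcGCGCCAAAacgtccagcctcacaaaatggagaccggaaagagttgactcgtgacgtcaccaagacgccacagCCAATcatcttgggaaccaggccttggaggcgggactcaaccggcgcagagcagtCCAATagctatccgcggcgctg
A match is a description of the letters and does not show that a factor binds there.

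Mitotic genes showed the largest shifts of any list. Of 37 mitotic cyclin, kinase and anaphase promoting complex genes, 35 were higher, with a median log2 change of 4.5; of 62 kinetochore, spindle, condensin and cytokinesis genes, 60 were higher, with a median of 4.45. Cdk1, the kinase that drives mitosis, gave 0, 0.249 and 0.969 CPM before and 36.3, 17.3 and 34.2 CPM at 48 (log2 change 6.14 ± 0.89, adjusted p = 1.27e-05). Its partner Ccnb1 (cyclin B1) gave 0.208, 0.995 and 0.484 CPM before and 60.3, 33.1 and 87.0 CPM at 48, and Ccna2 (cyclin A2) 2.91, 6.22 and 4.12 CPM before and 158, 96.5 and 201 CPM at 48. Foxm1, a transcription factor of G2 and M phase genes, rose from 0.208, 1.99 and 1.21 CPM to 107, 52.5 and 138 CPM. Cdc20, the activator of the anaphase promoting complex, gave 1.87, 3.98 and 2.91 CPM before and 259, 117 and 392 CPM at 48. The kinase gene Plk1 rose by 6.51 ± 1.02 and Aurka by 3.11 ± 0.49. Within these groups replicate 2 at 48 stood below the other livers at 48: it was the lowest of the 3 for 92 of the 95 called genes of both lists, while replicate 3 was the highest for 59. For the fork genes the order was less even, with replicate 2 the lowest for 20 and replicate 3 for 21 of 45.

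Spindle and kinetochore genes rose with them. Cenpa, the centromeric histone H3 variant gene, gave 4.16, 3.73 and 2.66 CPM before and 34, 18.4 and 48.5 CPM at 48. Kif11, the motor that separates spindle poles, rose by 5.03 ± 0.70, Tpx2, the activator of Aurora A at the spindle, by 5.31 ± 0.89, and Anln (anillin), of the cleavage furrow, by 5.29 ± 0.80 on the log2 scale. Sgol2a (shugoshin 2), which protects centromeric cohesion, rose from 0.624, 0.995 and 1.69 CPM to 105, 71.9 and 151 CPM. Kif2c, a microtubule depolymerase of the centromere, had 3 counts in all livers before and 374 at 48, a ratio of counts per scaled total of 115 (95% interval 39.1 to 560, counting error only). Tubulin genes rose too, 11 of 13 higher (median log2 1.91); Tubb6 went from 17.7, 16.2 and 17.4 CPM to 235, 112 and 327 CPM. Each of these single genes did not overlap between the groups.

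The promoters of 2 mitotic genes are shown for the same reason, mitotic promoters being known for CHR elements beside CCAAT boxes. A CHR element was present in 37% of the 27 mitotic kinase list promoters and 34.6% of the 52 kinetochore and spindle list promoters, beside 12.5% for genes tested and 17.4% of all promoters. A CCAAT box was present in 77.8% and 63.5%, beside 36.4% and 34.5%. Neither share was particular to these lists: the CHR letters were in 40.5% of the 37 cytochrome P450 promoters, and a CCAAT box in 85% of the 20 cholesterol gene promoters and 70.6% of the 34 heat shock and unfolded protein response promoters. Cdk1 (chr10:69352913-69353162, minus strand) holds CHR elements 71 and 15 bases before the start and CCAAT boxes at 208, 80 and 48 bases, and Cdc20 (chr4:118437344-118437593, minus strand) holds a CHR element at 18 bases and CCAAT boxes at 53 and 8 bases.
Cdk1: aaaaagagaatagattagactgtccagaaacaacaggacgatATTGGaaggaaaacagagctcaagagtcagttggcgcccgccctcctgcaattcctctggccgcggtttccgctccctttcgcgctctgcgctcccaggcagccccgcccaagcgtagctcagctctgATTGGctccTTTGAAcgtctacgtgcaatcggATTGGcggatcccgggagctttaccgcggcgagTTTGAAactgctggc
Cdc20: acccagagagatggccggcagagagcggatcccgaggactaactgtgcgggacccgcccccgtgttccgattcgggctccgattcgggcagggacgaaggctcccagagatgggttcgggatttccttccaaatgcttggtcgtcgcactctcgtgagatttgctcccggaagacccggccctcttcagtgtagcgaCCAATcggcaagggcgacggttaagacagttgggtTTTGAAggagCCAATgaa
These promoters were chosen because they hold the letters searched for, and not all promoters of these lists do.

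**Figure D2:**
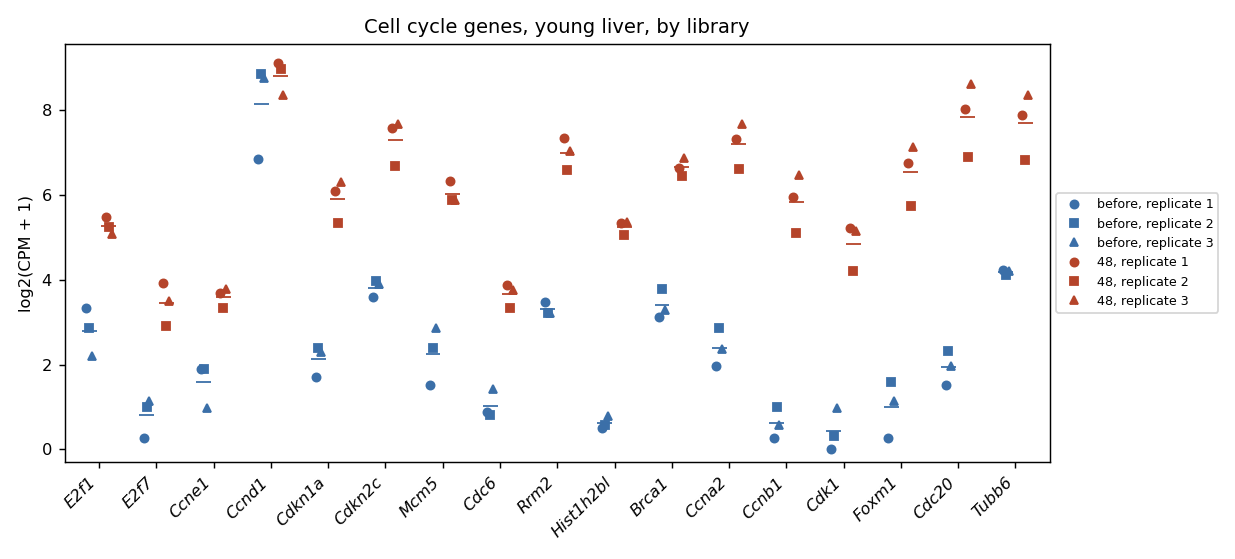
Level of 17 cell cycle genes in each young library (log2 of CPM + 1; blue before, red at 48; symbols give the replicate and short lines the mean of the 3 values). Each gene shown except Ccnd1 lies higher in all libraries at 48 than in all libraries before, and replicate 2 is the lowest of the red points for Ccna2, Ccnb1, Cdk1, Foxm1 and Cdc20.

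Genes of biosynthesis were called in a minority of members, beside 12.2% higher and 9.79% lower over all genes tested. Of 40 nucleolar ribosome biogenesis genes 7 (17.5%) were higher (median log2 0.25). The count was 2 without replicate 3 at 48, 3 without replicate 1 at 48, 3 without replicate 1 before and 3 without replicate 3 before. It was 2 with both libraries that hold Y-linked transcripts left out and 13 with total-count scaling. Nop58, a box C/D particle protein gene, rose from 9.78, 9.20 and 11.9 CPM to 34.5, 17.1 and 27.6 CPM, whereas Ncl (nucleolin) did not pass the test (log2 change -0.27 ± 0.22). Among 40 heat shock and unfolded protein response genes, 1 was higher and 1 lower. Hsp90aa1, a cytosolic chaperone gene, rose by 1.5 ± 0.29, and Herpud1, of endoplasmic reticulum protein disposal, fell from 500, 664 and 418 CPM to 160, 160 and 127 CPM. The endoplasmic reticulum chaperone gene Hspa5 gave 1620, 2400 and 3620 CPM before and 2150, 2350 and 3590 CPM at 48, so that its groups overlapped.

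**Figure D3:**
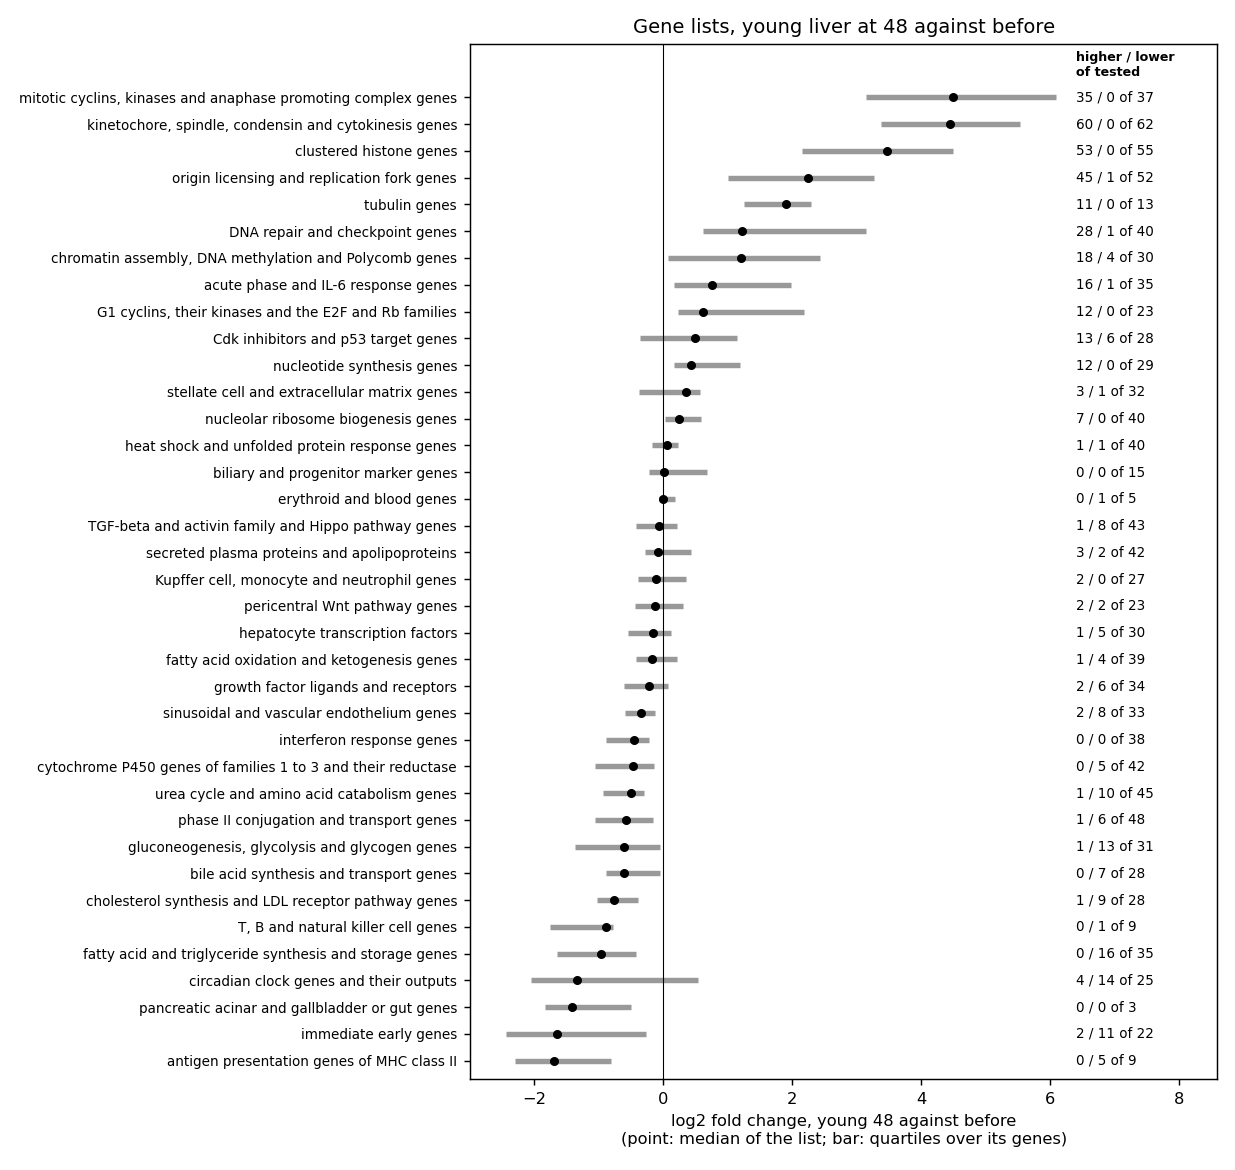
Median log2 fold change (point) and quartiles over the genes (bar) of each gene list in young liver at 48 against before, with the numbers called higher and lower of those tested at the right. Both mitotic lists lie highest with medians near 4.5, and the immediate early and MHC class II lists lie lowest.

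Genes of hepatocyte identity were called in a minority of members, beside 12.2% higher and 9.79% lower over all genes tested. Of 30 hepatocyte transcription factor genes, 1 (3.33%) was higher and 5 (16.7%) lower (median log2 -0.15), or 2 lower with both libraries that hold Y-linked transcripts left out. Hnf4a, the master regulator of the hepatocyte programme, gave 1280, 1510 and 1160 CPM before and 1360, 1410 and 1210 CPM at 48, a log2 change of 0.01 ± 0.14 with overlapping groups. Alb (albumin) gave 8340, 10000 and 9110 CPM before and 9290, 8810 and 7610 CPM at 48 (log2 change -0.10 ± 0.22, adjusted p = 0.802). Cebpa, another factor of this list, fell from 854, 719 and 841 CPM to 257, 414 and 312 CPM. Its log2 change was -1.3 ± 0.35 (edgeR adjusted p = 0.00742), a call lost with both libraries that hold Y-linked transcripts left out. Ppara, the fatty acid receptor, fell from 1080, 1100 and 948 CPM to 369, 553 and 352 CPM (-1.30 ± 0.29, adjusted p = 0.00156), and Nr1h4, the bile acid receptor FXR, fell by 0.76 ± 0.18 on the log2 scale. Gata6, a GATA family factor gene, was the higher one and rose from 10.2, 9.95 and 9.20 CPM to 30.2, 24.6 and 18.2 CPM. Of 42 secreted plasma protein and apolipoprotein genes, 3 were higher and 2 lower (median log2 -0.09, or 0.02 with total-count scaling, which called 6 higher). Hpx (hemopexin), which binds free heme, rose by 1.74 ± 0.33, and Apoa4, an apolipoprotein of intestinal and hepatic lipid transport, rose from 347, 727 and 443 CPM to 2360, 1780 and 3440 CPM.

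Acute phase genes, which hepatocytes express in response to IL-6, rose in part. Of 35 acute phase and IL-6 response genes, 16 were higher and 1 lower (median log2 0.76), and their summed level went from 10040, 10850 and 10020 CPM to 26510, 29870 and 26930 CPM. Lcn2 (lipocalin 2), which withholds iron carriers from bacteria, gave 2.08, 3.48 and 2.66 CPM before and 348, 269 and 390 CPM at 48 (log2 change 6.93 ± 0.97, adjusted p = 1.17e-05). Saa1 and Saa2, the serum amyloid A genes, rose by 5.55 ± 1.25 and 6.50 ± 1.45; they are close paralogs, and counts may be divided between them. Hp (haptoglobin) went from 2170, 1920 and 1530 CPM to 5750, 7350 and 6880 CPM, and Serpina3n from 325, 445 and 261 CPM to 1810, 1900 and 3010 CPM. Stat3, the factor downstream of IL-6, rose by 0.76 ± 0.23, a call that was lost without replicate 3 before. Socs3, its feedback inhibitor, gave 62.4, 29.1 and 36.3 CPM before and 98.2, 89.8 and 36.7 CPM at 48 and did not pass the test.

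Of 35 genes of fatty acid and triglyceride synthesis and storage, 16 were lower and 19 were not called (median log2 -0.97), and their summed level went from 40440, 28390 and 28770 CPM to 6820, 7921 and 6909 CPM. Scd1, the stearoyl-CoA desaturase gene, made up much of this, with 23600, 13000 and 15300 CPM before and 593, 1170 and 1130 CPM at 48 (log2 change -4.16 ± 1.01, adjusted p = 0.00363). Fasn, fatty acid synthase, fell from 3350, 3180 and 2980 CPM to 595, 714 and 504 CPM. Acaca and Acacb, which make malonyl-CoA, fell by 1.25 ± 0.16 and 2.35 ± 0.34 on the log2 scale. Thrsp, a lipogenic gene under thyroid hormone control, fell from 1640, 1590 and 1240 CPM to 49.7, 74.2 and 34.2 CPM, and Pnpla3, a lipid droplet protein gene, from 15.6, 14.4 and 17.7 CPM to 0.654, 0.517 and 0.493 CPM. Srebf1, whose product SREBP-1 switches on lipogenesis, fell by 1.57 ± 0.31. Plin2, which coats lipid droplets, gave 259, 256 and 262 CPM before and 270, 196 and 238 CPM at 48 and did not pass the test.

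Cholesterol genes were lower in 9 of 28 and higher in 1 (median log2 -0.76), with 3 lower without replicate 3 at 48, 4 without replicate 1 at 48, 5 without any 1 of the livers before, 3 with both libraries that hold Y-linked transcripts left out and 20 in a fit of the 6 libraries alone. Tm7sf2 and Stard4, of sterol synthesis and sterol transport, fell by 1.41 ± 0.26 and 1.15 ± 0.26. Of 39 fatty acid oxidation and ketogenesis genes, 4 (10.3%) were lower, a share near the 9.79% of all genes tested, and 1 higher (median log2 -0.17). The lower count was 2 without replicate 2 or 3 at 48 or replicate 2 or 3 before. It was 1 with both libraries that hold Y-linked transcripts left out. Cpt1a, the gate of mitochondrial oxidation, gave 859, 806 and 686 CPM before and 733, 760 and 746 CPM at 48 (log2 change -0.07 ± 0.23). Cyp4a31, a fatty acid omega-hydroxylase gene with close paralogs, was the 1 higher gene (2.60 ± 0.53).

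Among 31 genes of gluconeogenesis, glycolysis and glycogen, 13 were lower and 1 was higher (median log2 -0.60), with 8 lower without replicate 3 at 48, replicate 1 before or replicate 2 before. Ppp1r3g, a glycogen targeting subunit of protein phosphatase 1, gave 226, 155 and 120 CPM before and 0.654, 1.55 and 0.739 CPM at 48, a fall of 7.43 ± 0.87 on the log2 scale (adjusted p = 2.07e-06). Gys2, liver glycogen synthase, fell from 263, 231 and 280 CPM to 37.7, 32.3 and 27.8 CPM, and Pklr, liver pyruvate kinase, from 740, 539 and 504 CPM to 105, 107 and 80.8 CPM. Ldha, lactate dehydrogenase A, was the gene that rose (190, 161 and 132 CPM before, 552, 422 and 519 CPM at 48). Fbp2, a fructose bisphosphatase gene, had 119 counts before and 3 at 48, a ratio of 43.0 (95% interval 14.4 to 211, counting error only).

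**Figure D4:**
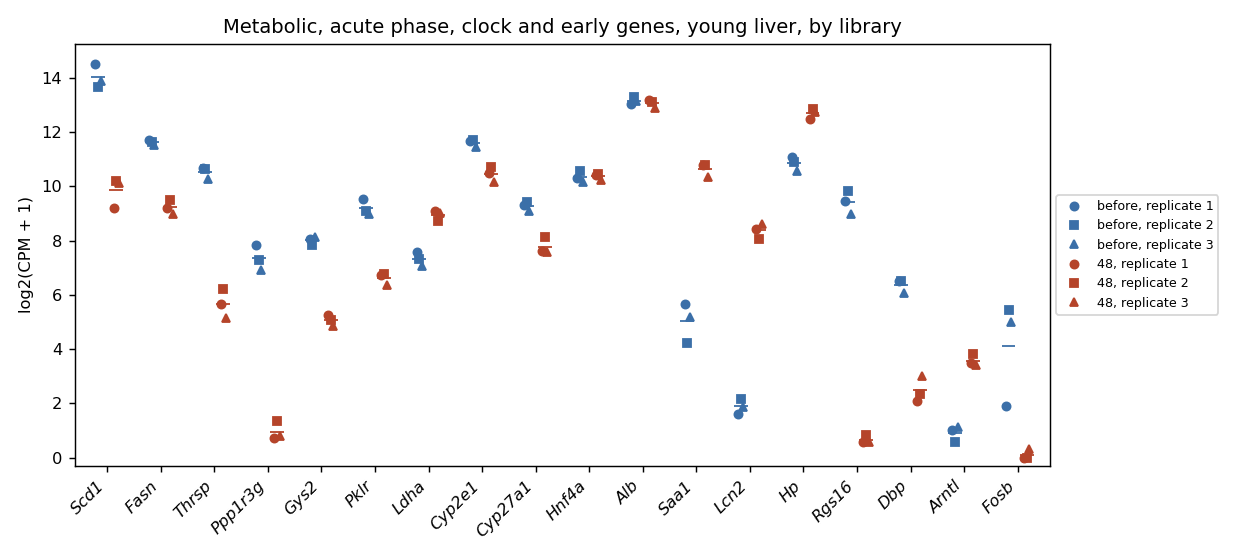
Level of 18 genes of metabolism, the acute phase, the clock and the immediate early response in each young library (log2 of CPM + 1; blue before, red at 48; symbols give the replicate and short lines the mean). Hnf4a and Alb overlap between the groups, the lipid and glycogen genes lie lower at 48, and Saa1, Lcn2 and Hp lie higher.

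Genes of bile acid, drug and nitrogen metabolism were called lower in some members. Of 28 bile acid genes 7 were lower (median log2 -0.60), and 11 were lower in a fit of the 6 libraries alone. Cyp27a1, a sterol 27-hydroxylase gene, fell from 642, 686 and 549 CPM to 196, 279 and 189 CPM, and Abcg5 and Abcg8, which pair to form the biliary sterol exporter, fell by 1.93 ± 0.40 and 1.88 ± 0.35. Cyp7a1, the rate-limiting enzyme of bile acid synthesis, gave 580, 701 and 366 CPM before and 209, 743 and 289 CPM at 48 and overlapped. Of 42 cytochrome P450 family 1 to 3 and reductase genes, 5 (11.9%) were lower, a share near the 9.79% of all genes tested (median log2 -0.47), with 1 lower without replicate 3 at 48, 2 without replicate 1 at 48 and 3 without any 1 of the livers before. Cyp2d22 fell by 0.86 ± 0.16, in a family of close paralogs, and Cyp3a11, a main drug hydroxylase gene, had a log2 change of 0.00 ± 0.71. Of 48 conjugation and transport genes, 6 (12.5%) were lower, also near that share, and 1 higher (median log2 -0.57), with 1 lower without replicate 3 at 48 or replicate 3 before, 3 without replicate 1 at 48 or replicate 1 before, and 18 in a fit of the 6 libraries alone. The higher gene, Nnmt, which methylates nicotinamide, rose by 1.51 ± 0.36. Of 45 urea cycle and amino acid genes, 10 were lower and 1 higher (median log2 -0.50), with 4 lower without replicate 1 or replicate 3 at 48, 5 without replicate 2 before, 2 with the libraries that hold Y-linked transcripts left out and 20 in a fit of the 6 libraries alone. Hgd, of tyrosine breakdown, fell from 141, 131 and 146 CPM to 40.5, 46.8 and 47.6 CPM. Ass1, of the urea cycle, was listed at 0 to 0.969 CPM in all 6 libraries and was not tested; how reads shared with similar sequences were counted is not given in the sources used here, so that these values do not show that the gene is not expressed.

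Immediate early genes, the first to answer a growth stimulus, were lower at 48 in part: of 22 tested, 11 were lower and 2 higher (median log2 -1.65), with 5 lower in a fit of the 6 libraries alone. Zfp36, which destabilises cytokine messages, fell from 223, 393 and 309 CPM to 76.0, 57.2 and 39.7 CPM (log2 change -2.42 ± 0.28, adjusted p = 1.17e-06). Jun, of the AP-1 factor, gave 434, 823 and 933 CPM before and 151, 109 and 180 CPM at 48. Fos, its partner, gave 16.4, 180 and 134 CPM before and 8.33, 7.76 and 6.16 CPM at 48. Among the livers before, replicate 1, which holds Y-linked transcripts, was much lower than the other pair for Fos, Fosb and Atf3, and none of these 3 calls held in a fit of the 6 libraries alone (adjusted p = 0.0695 for Fos and 0.0503 for Fosb). Fosb had 312 counts before and 1 at 48, a ratio of 338 (95% interval 60.2 to 13400). Ier5 and Klf6 were the 2 higher genes, and Ier5 rose from 6.66, 9.45 and 8.96 CPM to 34.6, 35.4 and 45.1 CPM. Myc gave 114 CPM in replicate 1 before and between 12.9 and 19 CPM in the other 5 libraries, and did not pass the test.

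Circadian clock genes were called in both directions. Of 25 clock genes and outputs, 14 were lower and 4 higher (median log2 -1.33). The positive limb gene Arntl (Bmal1) rose from 1.04, 0.497 and 1.21 CPM to 10.3, 13.2 and 9.61 CPM (log2 change 3.53 ± 0.62, adjusted p = 0.000116), and its partner gene Clock rose by 1.18 ± 0.21. Repressor and output genes were among those that fell: Nr1d1 (REV-ERB alpha) from 145, 132 and 140 CPM to 20.1, 18.9 and 44.1 CPM, Per2 from 74.1, 89.5 and 60.8 CPM to 25.3, 18.4 and 16.8 CPM, and Dbp from 90.5, 90.5 and 66.1 CPM to 3.27, 4.14 and 7.15 CPM. Rgs16, a regulator of G protein signalling, went from 9149 counts over the livers before to 8 counts at 48. The hour of sampling is not in the labels, so that a difference in hour and the time label cannot be told apart for these genes. An E-box (CACGTG), the site of the Arntl and Clock pair, was present in 30% of the 20 promoters found for this list, beside 8.35% for genes tested and 6.05% of all promoters. Other lists also lay above these shares, with 23.1% of the 26 nucleotide synthesis promoters and 22.2% of the 18 biliary and progenitor promoters. A CCAAT box was present in 65.0% of the clock list promoters. The promoter of Bhlhe41, a clock repressor gene that fell from 34.5, 11.7 and 17.4 CPM to 0.817, 1.03 and 0.986 CPM, is shown as it holds an E-box 153 bases and a CCAAT box 230 bases before its start (chr6:145865421-145865670, minus strand).
Bhlhe41: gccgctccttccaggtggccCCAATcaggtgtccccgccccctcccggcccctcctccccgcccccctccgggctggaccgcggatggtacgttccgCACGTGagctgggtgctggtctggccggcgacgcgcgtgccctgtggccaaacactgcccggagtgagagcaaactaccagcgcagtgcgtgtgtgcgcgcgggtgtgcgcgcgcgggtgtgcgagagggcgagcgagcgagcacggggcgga
The E-box letters were absent from the window in the other 14 of the 20 promoters.

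Growth factor genes were called in a minority of members, beside 12.2% higher and 9.79% lower over all genes tested. Of 34 ligand and receptor genes of the EGFR, MET, IL-6 and insulin-like pathways, 6 (17.6%) were lower and 2 (5.88%) higher (median log2 -0.22). In a fit of the 6 libraries alone 10 were lower. Hgf gave 21.6, 20.4 and 30.5 CPM before and 24.8, 28.2 and 20.5 CPM at 48, and its receptor gene Met 240, 252 and 286 CPM before and 212, 259 and 197 CPM at 48; both overlapped. Ghr, the growth hormone receptor, fell from 1080, 990 and 1200 CPM to 386, 516 and 324 CPM, Igfbp3 fell by 1.93 ± 0.41 and Vegfa by 1.23 ± 0.25. Igf1 fell by 1.02 ± 0.27, a call lost without replicate 3 at 48. Of 43 TGF-beta, activin and Hippo pathway genes, 8 (18.6%) were lower and 1 higher (median log2 -0.06, or 0.05 with total-count scaling). The lower count was 1 without replicate 3 at 48, 5 without replicate 3 before and 3 with the libraries that hold Y-linked transcripts left out. Inhba, a subunit of activin A, and Tgfbr2 did not pass the test. Of 23 pericentral Wnt pathway genes, 2 were higher and 2 lower (8.7% each; median log2 -0.13). None was lower without replicate 1 at 48 or with both libraries that hold Y-linked transcripts left out. The list's summed level ranged from 7930 to 8527 CPM before and from 5534 to 5876 CPM at 48. Cyp2e1, 1 of the lower genes, made up much of this fall, with 3270, 3350 and 2790 CPM before and 1440, 1680 and 1140 CPM at 48. Its call was lost without replicate 1 or 3 at 48 and with both libraries that hold Y-linked transcripts left out. Axin2 gave 25.2, 19.6 and 19.6 CPM before and 19, 16.8 and 29.6 CPM at 48.

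Markers of other liver cell types were called in a minority of members, beside 12.2% higher and 9.79% lower over all genes tested. Of 33 endothelial genes, 8 (24.2%) were lower and 2 (6.06%) higher (median log2 -0.34). The lower count was 4 without replicate 1 or 3 at 48 or replicate 2 before, and 5 without replicate 1 or 3 before. It was 3 with both libraries that hold Y-linked transcripts left out. The summed level of the endothelial genes ranged from 1726 to 1881 CPM before and from 1184 to 1398 CPM at 48. Oit3, a sinusoidal marker, fell from 49.3, 41.8 and 45 CPM to 18.8, 27.9 and 16.8 CPM. Of 32 stellate cell and matrix genes, 3 were higher and 1 lower (median log2 0.36); Mmp14, a membrane collagenase gene, rose by 1.02 ± 0.20, while Col1a1 (11.9, 9.20 and 10.7 CPM before, 17.8, 23.8 and 22.9 CPM at 48) did not pass the test. Of 27 Kupffer cell, monocyte and neutrophil genes, 2 were higher (median log2 -0.11), neither of them without replicate 1 or 3 at 48 or any 1 of the livers before. Their summed level ranged from 867 to 1087 CPM before and 790 to 1021 CPM at 48. Clec4f, a Kupffer cell marker, gave 152, 195 and 216 CPM before and 168, 198 and 138 CPM at 48. Of 25 biliary and progenitor genes 15 were tested, and none passed the adjusted test, with 0 at an unadjusted p under 0.05 and 0 by DESeq2. With both libraries that hold Y-linked transcripts left out, or with a term for these transcripts, 1 was called higher. A fit of the 6 libraries alone called 1 higher and 1 lower. Of 27 lymphocyte genes, 9 passed the filter, with 1 lower and a median log2 change of -0.88, negative in sign for all 9. The summed level of these 9 was 14.8, 14.7 and 22.8 CPM before and 8.82, 8.54 and 7.39 CPM at 48, so that the groups did not overlap. Of 12 erythroid genes 5 were tested, with 1 lower and a summed level of at most 25.1 CPM. The acinar gene Prss2 was at 0 counts in all 6 libraries, and 0 of 3 tested acinar and gut genes were called (1 at an unadjusted p under 0.05, 0 by DESeq2; median log2 -1.42). The part of other cell types in the changes above was not tested.

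Antigen presentation genes of MHC class II fell in part: 5 of 9 were lower (median log2 -1.70), or 3 with both libraries that hold Y-linked transcripts left out. H2-Ab1 gave 46.2, 21.1 and 33.4 CPM before and 7.52, 6.21 and 5.67 CPM at 48 (log2 change -2.36 ± 0.36, adjusted p = 2.45e-05), and H2-Aa and H2-Eb1 fell by 2.30 ± 0.44 and 2.46 ± 0.39. Cd74, the invariant chain gene, fell by 2.2 ± 0.46, a call lost with the libraries that hold Y-linked transcripts left out. The summed lymphocyte markers given above were lower at 48 in all 3 libraries too, and their part in the MHC class II result was not tested. None of 38 interferon response genes passed edgeR's adjusted test, with 4 at an unadjusted p under 0.05 and 2 called by DESeq2 (median log2 -0.46); a fit of the 6 libraries alone called 1 higher and 11 lower. Irf7 gave 125, 148 and 155 CPM before and 38.6, 53.8 and 50.3 CPM at 48; its groups did not overlap, but the log2 change of -1.59 ± 0.92 did not pass the test.

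Among the 12 genes with the largest rises, most belong to mitosis, the others being Lcn2, Saa2 and D17H6S56E-5, a locus with a provisional symbol that went from 12.1, 24.9 and 16 CPM to 1840, 1100 and 3590 CPM. Depdc1a had 1 count before and 199 at 48, a ratio of 184 (95% interval 32.6 to 7290, counting error only). Among the 12 with the largest falls, Lsmem1 had 74 counts before and 0 at 48, which makes it at least 26.7-fold lower against a floor of 3 counts over the group. Hcn3, a pacemaker channel gene, fell from 168, 65.7 and 62.2 CPM to 3.76, 4.66 and 2.46 CPM. Nr4a1, an orphan nuclear receptor gene, fell by 4.52 ± 0.65. Hsd3b5, a steroid dehydrogenase gene with close paralogs, gave 245 CPM in replicate 1 before and 30.6 and 29.8 CPM in the other livers before, against 0.163, 0 and 3.94 CPM at 48, and was called in 6 of 15 alternative analyses. Hamp2, a paralog of hepcidin, was lower at 48 in a call lost without replicate 1 at 48, without replicate 3 at 48 and in a fit of the 6 libraries alone, and its reads may be shared with Hamp.

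How far the change at 48 differed from that in old liver was tested as the difference of both changes. It was higher in young liver for 135 genes (1.00% of those tested) and lower for 51 (0.380%). All genes called in the following lists lay on the side of a larger rise in young liver: 4 of 37 mitotic kinase genes, 6 of 62 kinetochore and spindle genes, 5 of 52 fork genes, 6 of 40 repair genes and 14 of 55 clustered histone genes, with medians of the difference of 3.15, 3.16, 1.5, 0.96 and 2.59 beside 0.01 over all genes. Cdkn2c rose from 13.2 ± 1.90 to 164 ± 54.5 CPM (SD, n = 3) in young liver and stood at 13.1 ± 4.81 and 23.4 ± 15.1 CPM in old, a difference of 2.81 ± 0.57 (edgeR adjusted p = 0.0185). Rrm1 rose from 10.8 ± 3.73 to 83.8 ± 15.9 CPM in young liver, beside 11 ± 2.11 and 20.3 ± 4.65 CPM in old (difference 2.09 ± 0.39). For Cdkn1a the difference was -0.17 ± 1.08 and did not pass the test, with 105 ± 74.8 CPM in old liver at 48. The median difference was 0.05 over the acute phase genes and -0.18 over the clock genes. The count of 186 was 4 in a fit of only the groups compared, 94 with no filter on low counts and 74 with counts thinned to the smallest library. It also depends on single libraries: it was 983 without replicate 3 of old liver at 48, 17 without replicate 1 of young liver at 48, 21 without replicate 1 of young liver before, 36 and 73 without replicates 2 and 3 of young liver before, 62 without replicate 3 of young liver at 48, 52 without replicate 2 of old liver at 48, and 98 and 68 without replicates 1 and 2 of old liver before. Without replicate 3 of old liver before it was 123. It was 27 with the libraries that hold Y-linked transcripts left out and 522 by DESeq2.

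By 72, 45 genes were higher than at 48 (0.335%) and 117 lower (0.871%) in young liver. Among the fork genes 5 of 52 fell, among the repair genes 5 of 40, and among the clustered histone genes 4 of 55, with medians of -0.997, -0.837 and -1.30. Mcm7 went from 93.9 ± 13.5 CPM at 48 to 36.2 ± 9.53 CPM at 72 (SD, n = 3; edgeR adjusted p = 0.0235), and Pcna from 104 ± 12.1 to 44.8 ± 18.9 CPM. Ccnb1 stood at 60.1 ± 26.9 CPM at 48, 17.1 ± 7.62 CPM at 72 and 2.48 ± 1.13 CPM at 96; the step from 48 to 72 did not pass the test (log2 change -1.81 ± 0.67, adjusted p = 0.158). Dbp rose back from 4.85 ± 2.03 CPM at 48 to 37.8 ± 19.4 CPM at 72 (2.98 ± 0.75), and 5 of 32 stellate cell and matrix genes were higher at 72, Col1a1 at 147 ± 107 CPM. The 162 calls fell to 7 without replicate 1 at 48 or without replicate 1 at 72, to 14 without replicate 3 at 48 and to 77 without replicate 3 at 72. They were 3 in a fit of only the groups compared, 36 with total-count scaling, 103 with no filter on low counts and 84 with thinned counts. They fell to 20 with the libraries that hold Y-linked transcripts left out, and were 319 by DESeq2.

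The summed levels of whole lists place 48 within the young course as a description. Fork genes stood at 496 ± 35.9 CPM before, 1810 ± 282 at 48, 928 ± 244 at 72 and 571 ± 92.1 at 96 (SD, n = 3). Kinetochore and spindle genes stood at 378 ± 29.4 CPM before, 6653 ± 2270 at 48, 3083 ± 1590 at 72 and 913 ± 242 at 96. Of the 6 time labels of young liver, both sums were highest at 48. Fatty acid synthesis and storage genes stood at 32540 ± 6850 CPM before, 7217 ± 612 at 48, 7794 ± 1360 at 72 and 18970 ± 2050 at 240, and thus lay lowest at 48 and had not reached the level before at 240. Acute phase genes were highest at 48, at 27770 ± 1830 CPM, and stood at 11660 ± 1650 CPM at 240, beside 10300 ± 473 before.

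**Figure D5:**
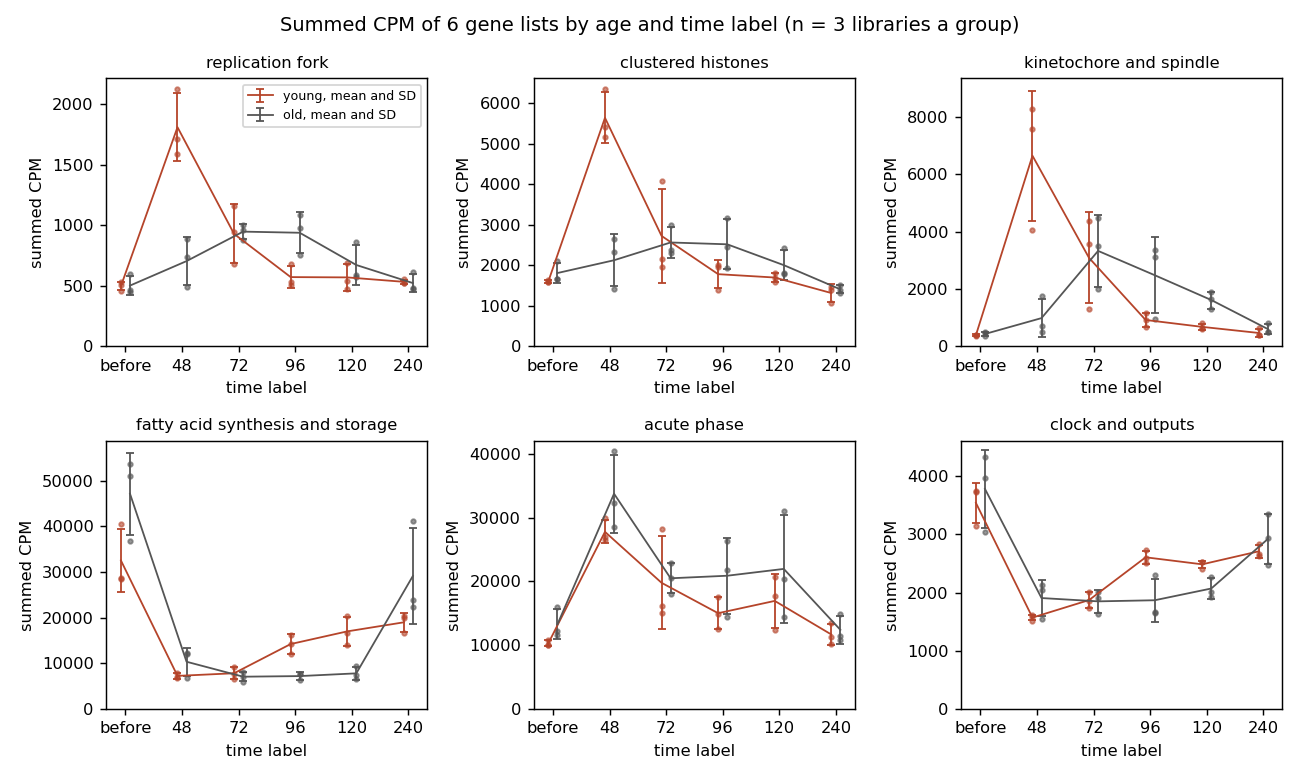
Summed CPM of 6 gene lists at each time label (mean and SD of 3 libraries; points are libraries; red young, grey old). In young liver the replication, histone and spindle sums peak at 48 (spindle 6653 CPM), while the fatty acid synthesis and clock sums are lowest there.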

How the data were processed

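Ribosome-depleted total RNA of 36 mouse livers was sequenced, and gene counts were deposited as 1 table per library. The authors deposited raw whole-number counts per gene symbol; STAR 2.7.5b, featureCounts, Trimmomatic 0.39, SAMtools 1.10 and Picard 2.20.8 are named, without role or order, with builds GRCm38 and mm10, per the submitters' processing notes. Annotation and strand setting are not given in the sources used here, so antisense and overlapping genes cannot be separated. Per the labels' protocols ERCC spike-in RNA was added; the tables hold 0 such rows, and it was not used here. Each table has 21955 rows, 27 of them symbols turned into dates.

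Counts were fitted in edgeR 4.0.16 (R 4.3.3) with TMM scaling, filterByExpr over the 12 groups and robust quasi-likelihood dispersion over all 36 libraries; Benjamini-Hochberg adjusted p under 0.05 counts as called. DESeq2 1.42.0 was an alternative. Scaling factors ran from 0.930 to 1.133, and the coefficient of variation between libraries was 19.7% for young liver before and 19.3% at 48. It was 40.5% for old liver at 48, which enters the comparison between ages, and 24.7% in the joint fit of all groups. SE is the log2 change divided by the root of the F statistic. An edgeR fit of the same kind, for young 48 against before only, was tested on simulated counts drawn with the same spread for all genes. P-values of this fit set each change against the spread between libraries of a group, estimated jointly over all 36 libraries. The comparison, gene lists and tests were chosen with earlier results of these data known. Genes were named by rule: the 12 largest changes in each direction at 5 CPM or more without overlap, up to 4 called genes of smallest p and preset key genes in each list, and the 6 genes of smallest p for the difference between ages; predicted, Riken, pseudogene, date-like and Y-linked symbols and Xist were left out. Mcm10, Tet2, Tet3, Kdm6b, Jarid2, Trp53inp1, Gdf15, Sesn1, Klf6 and Clock were named after their values were seen. A few genes that the rule names are not reported here. Library totals over the series ran from 2328233 to 6034446 counts. Intervals of count ratios cover counting error only.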

Additional observations from a re-analysis of the deposited data

Results flagged for a closer look

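The following genes, whose change at 48 differed between young and old liver, are given as values because the difference between the ages was itself tested (edgeR's quasi-likelihood test, adjusted over all genes); a difference here is the young log2 change minus the old one. Tmem194 (difference 2.51, adjusted p = 0.00464) rose from 9.16 ± 1.98 to 70.0 ± 21.3 CPM in young liver (SD, n = 3) and stood at 14.2 ± 2.85 and 19 ± 5.26 CPM in old. Gas2l3, of the cytokinetic bridge, differed by 2.90 (17.1 ± 5.87 to 101 ± 27.6 CPM young; 22.6 ± 2.74 and 17.8 ± 8.33 CPM old), and Cbx5, heterochromatin protein 1 alpha, by 1.27 (159 ± 3.43 to 342 ± 15.4 CPM young; 181 ± 28.9 and 162 ± 22.6 CPM old). Atrn (attractin) differed by -1.79 (adjusted p = 0.00032), with 273 ± 9.27 and 171 ± 18.0 CPM in young liver and 175 ± 9.28 and 377 ± 88.3 CPM in old. Fam20a differed by -1.59, with 53.1 ± 4.19 and 37.9 ± 5.82 CPM in young liver and 39.1 ± 5.14 and 83.7 ± 35.9 CPM in old.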

How the results depend on the processing

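Of the 2949 genes called in young liver at 48, no gene called under any of 17 alternatives changed sign, and of 194 named genes called, 141 were called in all alternatives that tested them. With the libraries that hold Y-linked transcripts left out, the calls were 1600 (1027 higher, 573 lower), 27 for the difference between ages and 20 for 72 against 48. Leaving out 1 library gave 1811 to 2855 calls at 48 (1133 to 1637 higher, 678 to 1218 lower), 17 to 983 for the ages and 7 to 171 for 72 against 48. The 2 smaller comparisons moved most: DESeq2 gave 522 and 319, no filter 94 and 103, a fit of only the groups compared 4 and 3, a term for Y-linked transcripts 303 and 255, and counts thinned to the smallest library 74 and 84; total-count scaling gave 36 for 72 against 48. For the comparison at 48 these gave 3086, 2455, 3254, 3257, 2379 and 2938 calls. The cause was not tested, beyond fewer samples or more genes in the fit where an alternative is built that way. Same-numbered libraries before and at 48 correlated at -0.237, 0.114 and -0.28 after removal of group means, so that the number does not pair them; with it as a replicate block the calls were 3109, 197 and 228. The spread estimated without robust weights, chosen after seeing the data, gave 2973, 180 and 165. List counts moved by over 1.5 times in 174 of 1258 list and setting pairs. Depth limits genes near 1 CPM, about 4 to 6 counts in a library.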
